A study of Homo sapiens with 60 samples.

Results

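Gene expression in A549 cells, a long-established line from a human lung carcinoma, was compared between a high and a low dose of the ethanol extract of Longan Arillus after 24 h. The high dose was 500 µg/mL and the low dose was 20 µg/mL, a 25-fold span. The comparison used 4 of the 60 libraries of the series, 2 at each dose: high replicates 2 and 3, and low replicates 1 and 2. They were chosen by their labels, and 1 library of each dose was left out. Low replicate 3 was short of long transcripts, and high replicate 1 lay with the libraries of other sets, so the results are also given with high replicate 1 put back. The series holds 25 groups, vehicle and 8 extracts at 3 doses each, and a set number in the library names places Longan Arillus and Zizyphi Semen together in set 10. The labels give the vehicle as 0.1% DMSO and the design text as 2%, and the DMSO share of the extract libraries is not stated in the sources used here. The 3 vehicle libraries carry a set number of their own, so a difference between vehicle and either Longan Arillus dose cannot be told apart from a difference between sets. Nothing in the labels says whether replicates came from separate cultures, so the p-values rest on the spread among libraries, part of which may be technical.

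Longan Arillus is the dried aril, the sweet flesh around the seed, of the longan fruit, and it is used in East Asian medicine. Plant extracts given to epithelial cells commonly act on the aryl hydrocarbon receptor (AHR), which switches on drug-metabolising enzymes, and on NRF2, which switches on antioxidant enzymes. Sugar uptake is read by the related factors MondoA and ChREBP, and short-lived signals are read by immediate early genes, among them the NR4A orphan nuclear receptors.

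Library totals of the whole series ran from 18 to 33.8 M counts (M, 1e+06 counts), and those of the 4 libraries from 23.8 to 28.3 M. On the first principal component of 52 libraries (40.3% of the variance), the other 15 libraries of set 10 lay between 10.7 and 20.5 and the 35 libraries of other sets between -9.1 and -0.5. High replicate 1 lay at -4.8 and medium replicate 1 at -3.7. The slope of log2 expression on log2 transcript length was -0.2438 in low replicate 3 and between -0.0439 and -0.0184 in the 4 libraries. All 14 A549 and lung epithelial markers reached 1 count per 1e+06 counts (CPM), and the 3 genes deleted in this line summed to 0.492 to 1.12 CPM. Mitochondrially encoded reads made up 11.97% and 11.32% of the counts at the high dose, 12.2% and 12.87% at the low dose, and 8.604% to 8.879% in vehicle. Among markers of other cell types, the 12 leukocyte markers summed to 15.4 to 18.6 CPM at the high and 17.3 to 24.1 CPM at the low dose, with PTPRC, CD3E, CD3D and MS4A1 at 0. The 11 fibroblast markers summed to 53.6 to 56.2 against 55 to 58.3 CPM (COL1A2 at 0), and the 10 endothelial markers to 31.7 to 32.6 against 30.7 to 32.7 CPM (KDR and EMCN at 0). The 11 neural markers summed to 292 to 294 against 296 to 302 CPM (OLIG1 and STMN2 at 0), and the 10 hepatocyte markers to 1.47 to 1.72 against 0.985 to 1.36 CPM (G6PC1 at 0). The 8 secretory markers of alveolar type II cells summed to 25.9 to 26.2 against 26.9 to 28.3 CPM, with SFTPA1 and SFTPA2 at 0. A level above 1 CPM was reached by 3 leukocyte, 4 fibroblast, 2 endothelial, 8 neural, 0 hepatocyte and 2 alveolar markers. Over the 4 libraries, TUBB3 of the neural list was at 142 to 147 CPM and COL1A1 of the fibroblast list at 32.2 to 35 CPM. EGFL7 (endothelial) was at 24.7 to 26.6, ABCA3 (alveolar) at 24.6 to 26.9 and CD68 (leukocyte) at 10.8 to 19.7 CPM. The part of the small shifts in these sums in the results was not tested.

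Of 18238 genes tested, 4 passed an adjusted p of 0.05 (0.0219% of the genes tested), and all 4 were lower at the high dose. They were NR4A1, an orphan nuclear receptor of the immediate early class, SLC45A4, a membrane transporter of the solute carrier superfamily, H19, an imprinted long noncoding RNA, and JUP, which encodes the junction protein plakoglobin. No gene passed in the higher direction. The fall was between 14.6% for JUP and 24.8% for NR4A1. At an unadjusted p of 0.05, 1509 genes passed (8.27%), of which 718 were higher (3.94%) and 791 lower (4.34%), and DESeq2 called 14 higher and 40 lower. The median log2 fold change of all tested genes was -0.007.

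**Figure D1:**
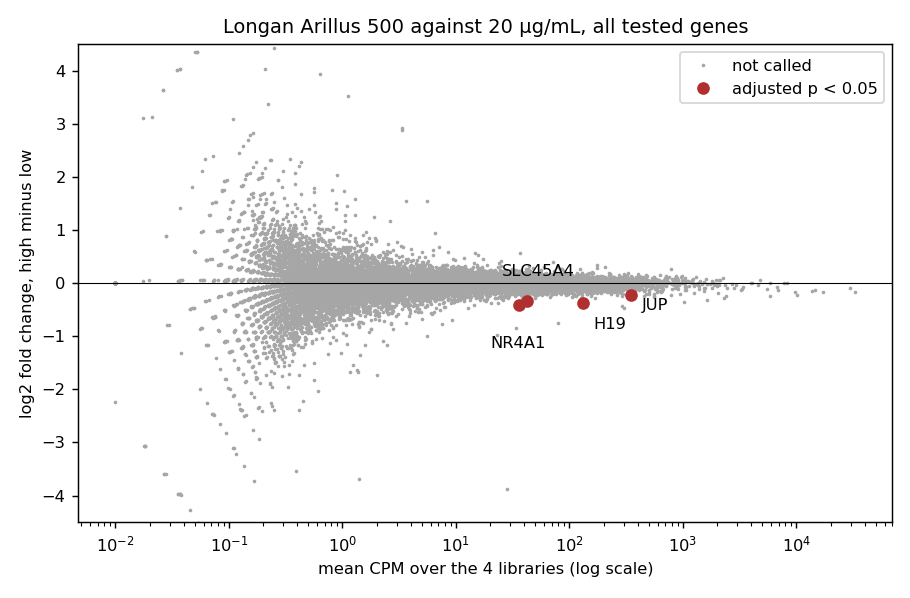
Each point is a tested gene, with its mean level over the 4 libraries (CPM, log scale) on the x axis and the fitted log2 fold change, high minus low dose, on the y axis. Red points are the 4 genes past an adjusted p of 0.05, all below 0, and 53 genes lie outside the plotted y range.

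The differences were small where the data could measure them well. Among the 9467 genes with a mean of at least 10 CPM, the 95% interval of the fold change lay inside 1.5-fold in either direction for 99.1% of the genes and inside 2-fold for 99.8%. A single gene of these had an estimate past 2-fold. This was EIF3CL, a near-identical copy of EIF3C whose counts RSEM divides between the 2 loci, and its log2 fold change of -3.88 ± 1.6 (SE) did not pass (adjusted p = 0.501, edgeR). Over all 18238 genes, many of them at low counts, the interval lay inside 1.5-fold for 66.6% and inside 2-fold for 78.3%.

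NR4A1 (ENSG00000123358, chromosome 12, 52022832 to 52059507, plus strand, GRCh38) had the smallest p. Its level was 31.37 and 30.91 CPM in the high-dose libraries and 40.96 and 42.08 CPM in the low-dose libraries. The doses did not overlap, which was a condition for naming a called gene. The means were 31.1 ± 0.325 and 41.5 ± 0.798 CPM (SD, n = 2 each), and their gap comes from the values that chose the gene. Its log2 fold change was -0.41 ± 0.0644 (SE), with a 95% interval of -0.54 to -0.28 (adjusted p = 0.00125, edgeR). High replicate 1 read 31.31 CPM, beside the other high-dose libraries, and with it the fold change was -0.41 ± 0.058 (adjusted p = 0.000162). The 3 medium-dose libraries read 35.84, 38.74 and 39.45 CPM, between the doses, and the 3 vehicle libraries 35.56, 33.68 and 37.61 CPM, also between them. Low replicate 3 read 7.822 CPM, far below every other library here. With it, high replicate 1 and the other short-transcript library of the series all put back, the log2 fold change was 0.031 (adjusted p = 0.939), and low replicate 3 was not put back alone.

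The other members of the family were looked at after the value of NR4A1 was seen. NR4A2 was at 4.668 and 4.936 CPM at the high and 7.583 and 6.743 CPM at the low dose, and NR4A3 at 7.612 and 8.647 against 11.12 and 9.47 CPM. Neither overlapped between the doses in these libraries, and neither passed. The log2 fold change was -0.57 ± 0.16 for NR4A2 (adjusted p = 0.238, edgeR) and -0.34 ± 0.12 for NR4A3 (adjusted p = 0.388, edgeR). Non-overlap by itself is common with 2 libraries a side: 17.8% of all tested genes were higher and 20.9% lower at the high dose without overlap. High replicate 1 read 6.006 CPM for NR4A2 and 9.307 CPM for NR4A3, above both other high-dose libraries for each gene. With it, the log2 fold change was -0.46 ± 0.148 for NR4A2 (adjusted p = 0.196, edgeR) and -0.27 ± 0.111 for NR4A3 (adjusted p = 0.353, edgeR). Vehicle read 4.207 to 5.045 CPM for NR4A2, at the level of the high dose, and 8.443 to 9.638 CPM for NR4A3, overlapping both doses.

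The promoters of this family are printed because NR4A genes are textbook targets of CREB, which binds the cyclic AMP response element, and because its family members had negative estimates together. RefSeq (GRCh38.p14) lists 2 starts for NR4A1 and 1 for NR4A3 in the table used, which does not list NR4A2. Each window runs from 250 bases before to 50 bases after the start, 5′ to 3′ on the gene's strand, and capitals mark the half-site of the element (TGACG on either strand, so TGACG or CGTCA).
NR4A1, first start, chr12:52022582-52022881, plus strand: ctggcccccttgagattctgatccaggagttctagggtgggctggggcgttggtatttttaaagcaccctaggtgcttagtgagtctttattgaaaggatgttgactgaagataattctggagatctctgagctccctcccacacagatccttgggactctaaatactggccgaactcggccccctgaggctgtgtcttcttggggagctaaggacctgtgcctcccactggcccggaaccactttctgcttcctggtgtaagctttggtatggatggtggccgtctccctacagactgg
NR4A1, second start, chr12:52037465-52037764, plus strand: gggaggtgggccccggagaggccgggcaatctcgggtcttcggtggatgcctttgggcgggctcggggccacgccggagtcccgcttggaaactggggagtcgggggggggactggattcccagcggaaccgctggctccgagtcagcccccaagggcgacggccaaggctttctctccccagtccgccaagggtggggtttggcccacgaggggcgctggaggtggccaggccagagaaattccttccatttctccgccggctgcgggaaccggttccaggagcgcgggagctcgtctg
NR4A3, chr9:99821635-99821934, plus strand: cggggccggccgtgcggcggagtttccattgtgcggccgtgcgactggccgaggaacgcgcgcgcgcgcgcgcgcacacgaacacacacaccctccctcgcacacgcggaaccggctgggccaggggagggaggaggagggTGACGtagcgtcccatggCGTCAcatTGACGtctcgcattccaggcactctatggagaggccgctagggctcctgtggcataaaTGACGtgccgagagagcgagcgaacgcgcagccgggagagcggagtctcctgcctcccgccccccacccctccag
The NR4A3 window holds 4 half-sites, 109, 91, 83 and 25 bases before the start, and neither NR4A1 window holds one. Of the 35116 windows in the table, 24.6% hold at least 1. Among the other called genes searched, a JUP window holds 1, 172 bases before the start, and the H19 window holds 0. The GC box (GGGCGG, in 45% of all windows) was also searched, with 1 in the second NR4A1 window and 1 in the NR4A3 window. The E-box (CACGTG, in 7.26%) was found in none of the NR4A1 and NR4A3 windows. A match of letters is not evidence of binding, and other starts of NR4A1 are not covered by these windows.

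SLC45A4 (ENSG00000022567, chromosome 8, 141207166 to 141308305, minus strand) was at 39.11 and 35.81 CPM at the high dose and 46.5 and 48.83 CPM at the low dose. Its log2 fold change was -0.35 ± 0.0594 (adjusted p = 0.00451, edgeR), and with high replicate 1 it was -0.33 ± 0.054 (adjusted p = 0.00108). H19 (ENSG00000130600, chromosome 11, 1995176 to 2001470, minus strand) was at 117.4 and 109.1 CPM at the high dose against 142.5 and 153.1 CPM at the low dose. H19 is transcribed from the maternal chromosome beside IGF2 and is abundant in fetal tissue and many tumours. Its log2 fold change was -0.38 ± 0.0682 (adjusted p = 0.0101, edgeR), and -0.41 ± 0.0614 with high replicate 1 (adjusted p = 0.000411). JUP (ENSG00000173801, chromosome 17, 41754604 to 41786931, minus strand) was the most abundant of the 4, at 329.5 and 310.1 CPM against 359.5 and 390.7 CPM. Its protein links cadherins and desmosomal cadherins to the cytoskeleton. The log2 fold change was -0.23 ± 0.0445 (adjusted p = 0.0274, edgeR), and -0.25 ± 0.0405 with high replicate 1 (adjusted p = 0.00117). Vehicle and the medium dose read 42.37 to 43.74 and 42.94 to 44.12 CPM for SLC45A4, and 127.3 to 131.4 and 125.7 to 143 CPM for H19, between the high and the low dose but for 1 medium library of H19 that lay within the low dose. For JUP the vehicle range of 310.9 to 324.6 CPM overlapped the high dose, and the medium range was 346.6 to 366.6 CPM. With the trends of transcript length and GC content removed from each library, the adjusted p of JUP was 0.0508, and the other 3 genes still passed.

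**Figure D2:**
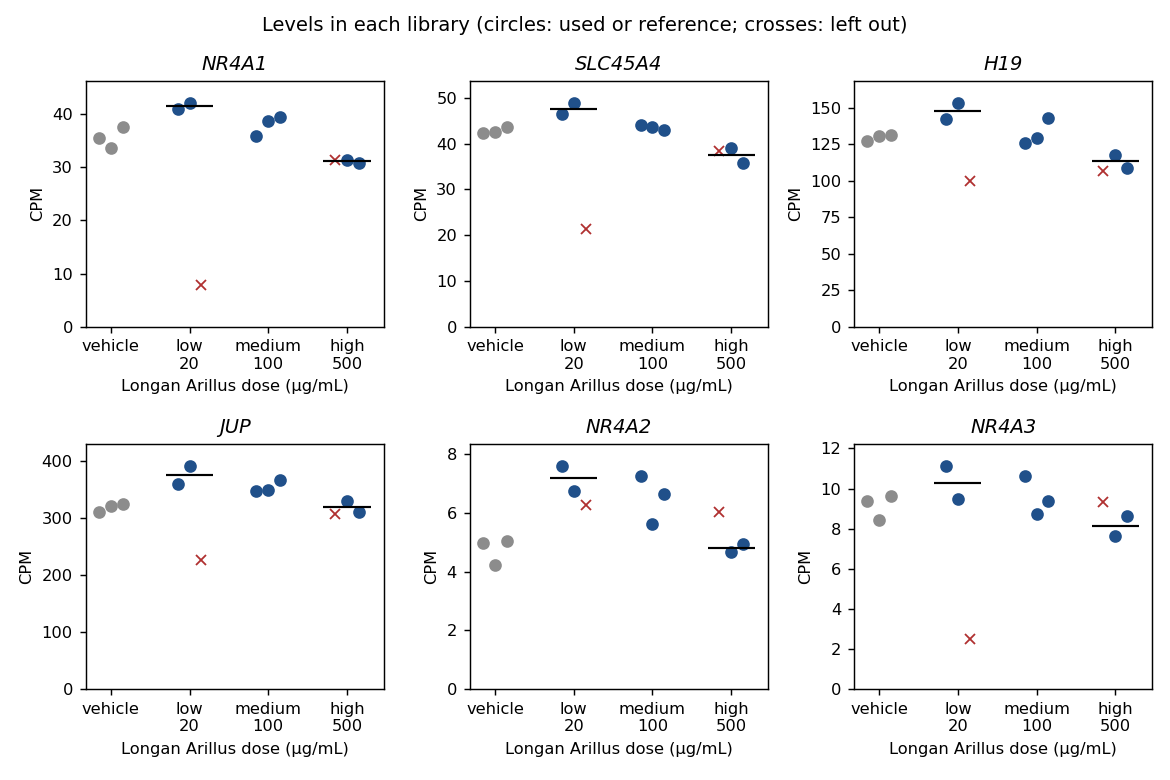
CPM of the 4 genes that passed and of NR4A2 and NR4A3 in each vehicle (grey) and Longan Arillus (blue) library by dose in µg/mL, with bars for the mean of the 2 libraries compared at the low and the high dose. Crosses are low replicate 3 and high replicate 1, which were left out, and the low-dose circles lie above the high-dose circles in every panel.

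All 4 calls rested on 2 of the libraries. Without low replicate 2, no gene passed (edgeR, 1011 genes at an unadjusted p of 0.05), with an adjusted p of 0.159 for NR4A1, 0.479 for SLC45A4, 0.681 for H19 and 0.826 for JUP. Without high replicate 3, again no gene passed (909 at an unadjusted p of 0.05), with 0.208 for NR4A1 and 0.923, 0.923 and 0.95 for SLC45A4, H19 and JUP. With any 1 of the 4 libraries left out, the log2 fold change ran from -0.432 to -0.392 for NR4A1, from -0.433 to -0.329 for H19, from -0.407 to -0.284 for SLC45A4 and from -0.286 to -0.166 for JUP. With low replicate 3, high replicate 1 and the other short-transcript library of the series put back, the log2 fold change of SLC45A4 was -0.048 and that of JUP -0.044, and neither passed. H19 passed there at -0.25 (adjusted p = 0.0414).

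Putting high replicate 1 back raised the count to 16 genes, 2 higher and 14 lower, and all 4 genes were among them. HMGN4, a nucleosome-binding protein, was among the higher ones (log2 fold change 0.31, adjusted p = 0.0243). Among the 14 lower ones were PKM, the last enzyme of glycolysis (-0.15, adjusted p = 0.0203), TGM2, a transglutaminase (-0.16, adjusted p = 0.0345), KRT4, a keratin (-0.26, adjusted p = 0.0345), and SAMD11 (-0.35, adjusted p = 0.00809). PKM, TGM2 and KRT4 are named here after their values were seen. High replicate 1 lies with other sets on the first principal component, and the part of that in these added calls was not tested.

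No gene passed in the higher direction in the fit of 51 libraries, so the 5 with the smallest p are given as values. With the 4 libraries fitted alone, 21 genes passed, 15 higher and 6 lower. HMGN4 was at 25.86 and 25.98 CPM at the high and 21.61 and 20.3 CPM at the low dose (log2 fold change 0.31 ± 0.068, adjusted p = 0.109, edgeR). MCL1, an anti-apoptotic protein of the BCL2 family, was at 131.7 and 138.6 against 123.2 and 121.4 CPM (0.15 ± 0.0351, adjusted p = 0.148). FABP5, a fatty acid carrier, was at 78.39 and 79.64 against 66.89 and 69.36 CPM (0.22 ± 0.0537, adjusted p = 0.166). PARPBP, a regulator of homologous recombination, was at 49.87 and 48.56 against 42.31 and 43.39 CPM (0.20 ± 0.0504, adjusted p = 0.181). NDUFA4, a respiratory chain subunit, was at 91.34 and 94.66 against 79.84 and 75.87 CPM (0.26 ± 0.0653, adjusted p = 0.185). None of the 5 overlapped between the doses, which their choice by p makes likely. Of all tested genes, 17.8% were higher at the high dose without overlap. NDUFA4 passed when the 4 libraries were fitted alone (adjusted p = 0.05 after rounding), and MCL1 passed with DESeq2 (adjusted p = 0.00852). With high replicate 1, HMGN4 passed (above), and the adjusted p was 0.0695 for MCL1, 0.0657 for FABP5, 0.0695 for PARPBP and 0.109 for NDUFA4. Vehicle levels lay above those of the high dose for MCL1 (153.5 to 161.4 CPM) and NDUFA4 (103.1 to 110.3 CPM). The fifth gene in the lower direction, SAMD11, was at 38.81 and 35.53 against 46.82 and 46.1 CPM and did not pass without high replicate 1 (-0.32 ± 0.0703, adjusted p = 0.109).

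Gene lists for 40 pathways, complexes and cell functions were described by counts, since 745 of their 794 genes were tested and only 1 was called, NR4A1 among 18 tested immediate early genes. The median of that list was -0.01, with 7 of 18 above 0, and NR4A1, NR4A2 and NR4A3 were the 3 members at an unadjusted p of 0.05, all lower. In the remaining lists no member passed in the edgeR fit of 51 libraries. With high replicate 1, PKM of the glycolysis list passed besides NR4A1, and the list medians lay between -0.183 and 0.12. Below, counts at an unadjusted p of 0.05 are read against 3.94% of genes in the higher and 4.34% in the lower direction.

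**Figure D3:**
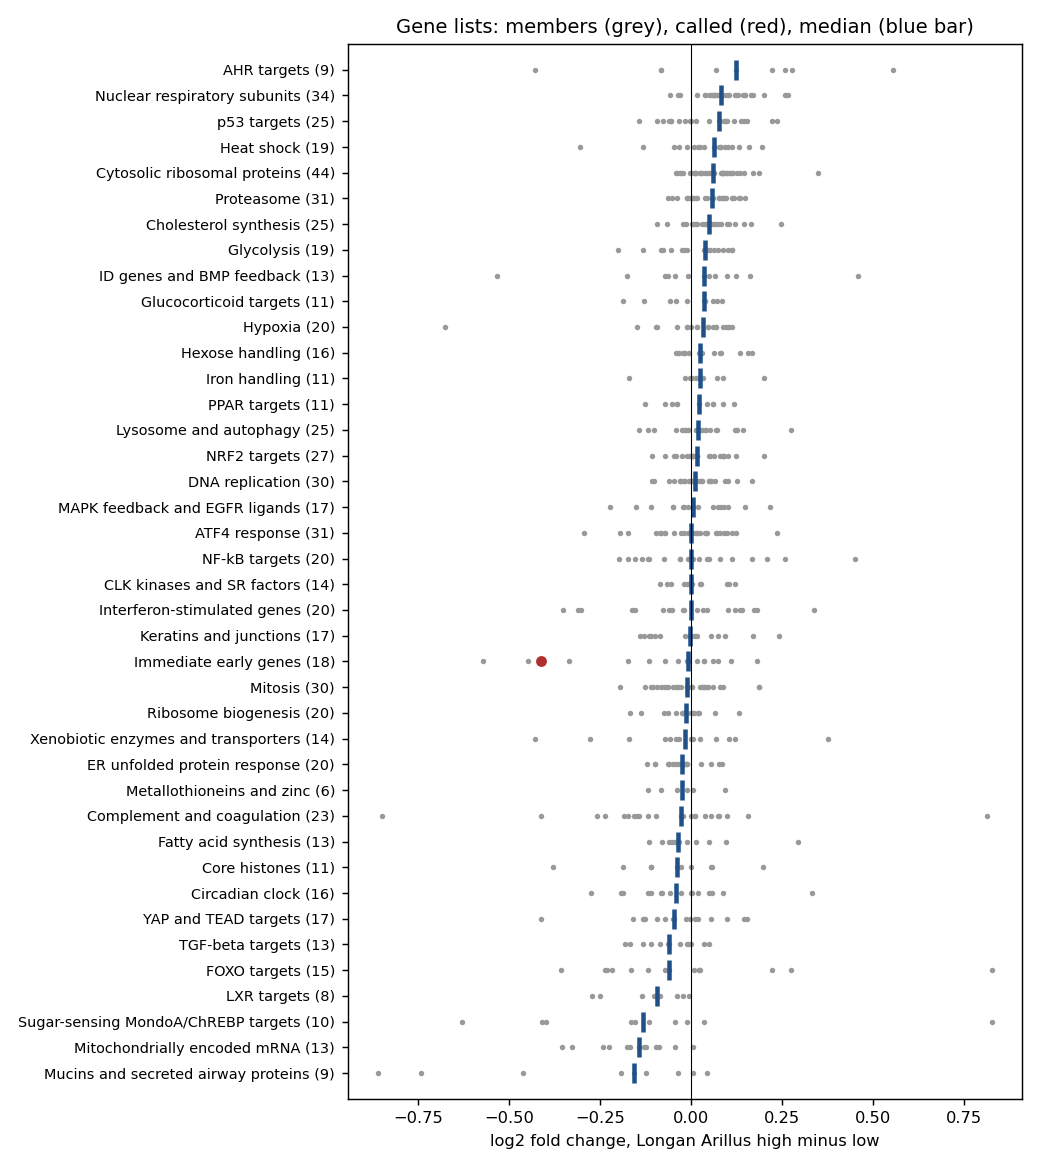
Log2 fold change, high minus low dose (x axis), of each tested member of the 40 gene lists (y axis, number tested in brackets). Blue bars mark list medians, which lie between -0.158 and 0.123, and the single red point is NR4A1.

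The AHR targets had the highest median of the 40 lists, 0.12 over 9 tested members, with 4 higher and 1 lower at an unadjusted p of 0.05. CYP1B1, a monooxygenase of polycyclic hydrocarbons and steroids, was at 94.32 and 90.25 CPM at the high and 80.91 and 73.79 CPM at the low dose, with 113.9 CPM in high replicate 1 (log2 fold change 0.26 ± 0.0746, adjusted p = 0.254, edgeR). CYP1A1, the classic AHR target, was near the detection limit at 1.43 and 1.435 against 0.8585 and 1.099 CPM (0.55 ± 0.262, adjusted p = 0.576). Neither dose reached 1.5 CPM. With high replicate 1 the log2 fold change of CYP1B1 was 0.37 ± 0.0799 (adjusted p = 0.0503), and no AHR target passed. Of the 27 NRF2 targets, 5 were higher and 1 lower at an unadjusted p of 0.05, around a median of 0.015. HMOX1, which breaks down heme, was at 171.6 and 166.2 against 146.5 and 148 CPM (0.20 ± 0.0572, adjusted p = 0.248, edgeR). With high replicate 1 the adjusted p of HMOX1 was 0.0839 (edgeR). DESeq2 on the 51 libraries called it (adjusted p = 0.0359). GCLM, the modifier subunit of the enzyme that starts glutathione synthesis, differed by 0.087 ± 0.046 (adjusted p = 0.638, edgeR). NQO1, a quinone reductase that stands on both lists, was at 1350 and 1358 against 1255 and 1238 CPM, named after its values were seen.

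The sugar-sensing targets of MondoA and ChREBP had a median of -0.13 over 10 tested genes, with 0 higher and 3 lower at an unadjusted p of 0.05. TXNIP, the most sugar-responsive of them in many cells, stood at a mean of 0.137 CPM at the high and 0.0747 CPM at the low dose, too low to be measured here (log2 fold change 0.83 ± 0.875). ARRDC4, another arrestin-like target, was also under 1 CPM (-0.41 ± 0.361). Of 19 glycolysis genes, 2 were higher and 3 lower, around a median of 0.038, and SLC2A1, the main glucose transporter of tumour cells, differed by 0.045 ± 0.0424. SLC2A3, the neuronal glucose transporter, was at 32.8 and 31.93 against 37.52 and 37.05 CPM (-0.20 ± 0.0655, adjusted p = 0.316, edgeR). For every glycolysis gene tested, 19 of 19, the 95% interval lay inside 1.5-fold. Of 16 hexose-handling genes, 2 were higher at an unadjusted p of 0.05, among them AKR1B1, aldose reductase (0.16 ± 0.0518, adjusted p = 0.33, edgeR).

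Nuclear genes for respiratory chain subunits had 31 of 34 estimates above 0, with a median of 0.083, and 11 of 34 were higher at an unadjusted p of 0.05 and 0 lower. NDUFA4 had the smallest p among them, and none passed adjustment in the fit of 51 libraries, while NDUFA4 did with the 4 libraries fitted alone. The first members listed, NDUFA1 and NDUFA2, differed by 0.26 ± 0.109 (adjusted p = 0.522) and 0.12 ± 0.0854 (adjusted p = 0.765). Cytosolic ribosomal protein genes had 37 of 44 estimates above 0, with a median of 0.059, and 8 were higher and 0 lower at an unadjusted p of 0.05. RPL3 and RPL4 differed by 0.029 ± 0.0369 and 0.038 ± 0.0336. None passed in the edgeR fit of 51 libraries. DESeq2 on the same libraries called RPS25 (0.35, adjusted p = 0.0452) and RPL39 (0.29, adjusted p = 0.029) higher. With the 4 libraries fitted alone, the ribosomal protein genes RPS12 (0.28, adjusted p = 0.0284), RPS25 (0.35, adjusted p = 0.0449) and RPL39 (0.30, adjusted p = 0.0403) were higher, named after their values were seen. These are short transcripts, with a median length of 668.2 bases for the respiratory and 719.5 for the ribosomal list against 1058 over all tested genes. With the trends of length and GC content removed, the count at an unadjusted p of 0.05 was 12 in each list, against 4.21% of all genes in that direction, and still no member passed. The mRNAs encoded in the mitochondrial genome had a median of -0.14, with 1 of 13 above 0 and 0 at an unadjusted p of 0.05 in either direction. The mitochondrial share of counts given above was lower in both high-dose libraries than in both low-dose libraries.

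No stress list had a member called in the edgeR fit of 51 libraries. The 20 genes of the unfolded protein response of the endoplasmic reticulum had 0 members at an unadjusted p of 0.05, and all 20 intervals lay inside 1.5-fold. HSPA5, its main chaperone, was at a mean of 623 CPM at the high and 630 CPM at the low dose (log2 fold change -0.013 ± 0.0347). The 31 genes of the ATF4 response, the amino acid stress program, had a median of 0 with 1 member each way, and ATF4 and DDIT3 differed by -0.047 ± 0.0441 and 0.009 ± 0.127. Of 19 heat shock genes, 4 were higher, with a median of 0.062. DESeq2 called DNAJA1 (0.16, adjusted p = 0.029) and HSPD1 (0.11, adjusted p = 0.0487) higher, named after their values were seen. HSPA1A and HSPA1B, near-identical copies whose counts are uncertain, differed by 0.079 ± 0.111 and 0.19 ± 0.11. The 25 p53 targets had a median of 0.076 with 3 higher, and CDKN1A, the cell-cycle inhibitor, differed by 0.05 ± 0.0551. The 20 NF-kB targets had 0 higher and 1 lower, and CXCL8 and CXCL1 were near 1 CPM in both groups.

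No proliferation gene listed was called in the edgeR fit of 51 libraries. Of 30 DNA replication genes, 4 were higher and 0 lower at an unadjusted p of 0.05, with a median of 0.009, and MCM2 and MCM3, subunits of the replicative helicase, differed by -0.001 ± 0.0524 and 0.012 ± 0.0427. Of 30 mitosis genes, 3 were higher and 1 lower, with a median of -0.011. All 30 intervals of either list lay inside 1.5-fold. Of 25 cholesterol synthesis genes, 21 had estimates above 0 and 4 were higher at an unadjusted p of 0.05. The 8 targets of the sterol receptor LXR all had estimates below 0, with a median of -0.094 and 1 at an unadjusted p of 0.05.

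The lowest median of the 40 lists was that of mucins and secreted airway proteins, -0.16 over 9 tested genes, with 2 lower at an unadjusted p of 0.05. These were the gel-forming mucins MUC5B and MUC5AC, named after their values were seen. MUC5B was at 64.43 and 54.89 CPM at the high and 93.36 and 106.4 CPM at the low dose, with 64.23 CPM in high replicate 1 (log2 fold change -0.74 ± 0.211). MUC5AC was at 283.1 and 225.2 against 319.6 and 381.5 CPM, with 284.7 CPM in high replicate 1 (-0.46 ± 0.164). Both had a larger SE than the median of 0.109 over all tested genes, and neither passed adjustment. Of 23 complement and coagulation genes, 5 were lower and 2 higher at an unadjusted p of 0.05. The 3 fibrinogen chain genes were among the lower ones, again named after their values were seen. FGB was at 222.8 and 223 against 249.1 and 244.3 CPM, and DESeq2 called it (-0.15, adjusted p = 0.0412).

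The medium dose, 100 µg/mL, was set against the same 2 low-dose libraries, so its values share them with the high dose. No gene passed (edgeR, 0 of 18238, 1370 or 7.51% at an unadjusted p of 0.05, and DESeq2 called 1). For the 4 genes lower at the high dose, the medium-minus-low log2 fold change was -0.13 ± 0.0577 for NR4A1, -0.13 ± 0.0535 for SLC45A4, -0.16 ± 0.0617 for H19 and -0.084 ± 0.0405 for JUP. Each estimate was smaller in size than that of the high dose, and none passed (adjusted p from 0.617 to 0.658). The difference between the medium and the high dose was not tested. Without medium replicate 3, 40 genes passed, 30 higher and 10 lower. That fit kept medium replicate 1, which lay with other sets on the first principal component (-3.7). Medium replicate 1 was also kept in the main fit, and without it 0 genes passed (edgeR). The part of its position in the 40 calls was not tested.

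Zizyphi Semen, the other extract of set 10, was given at the same doses with 3 libraries each, and shares no library with Longan Arillus. The difference between the 2 extracts in their own high-minus-low changes was tested directly. It passed for 26 of 18238 genes (0.143%), 10 with a more positive change in Longan Arillus (0.0548%) and 16 with a more negative one (0.0877%). DESeq2 called 44, and with high replicate 1 put back edgeR called 25, of which 21 were among the 26. None of the 4 genes lower with Longan Arillus was among the 26. NR4A1 was at 25.84, 24.97 and 24.67 CPM at the high and 40.22, 38.26 and 38.84 CPM at the low dose of Zizyphi Semen, a change of -0.63 ± 0.0553, and the extracts differed by 0.22 ± 0.085 (adjusted p = 0.455, edgeR; 95% interval 0.049 to 0.392). NR4A1 was thus lower at the high dose of both extracts. NR4A2 and NR4A3 changed by -0.43 ± 0.132 and -0.56 ± 0.104 with Zizyphi Semen. Their differences between the extracts did not pass (adjusted p = 0.914 and 0.776, edgeR). H19 changed by -0.064 ± 0.0553 with Zizyphi Semen, a difference of -0.32 ± 0.0878 that did not pass (adjusted p = 0.205, edgeR). SLC45A4 and JUP differed between the extracts by -0.15 ± 0.0774 (adjusted p = 0.634) and -0.14 ± 0.0575 (adjusted p = 0.482).

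The 11 named genes were taken from those called in this difference, and that choice by itself favours estimates of opposite sign. The signs were opposite in 9 of the 11, the exceptions being PDK4 and PLA2G4A, so this count is not a separate result. PDK4, a kinase that holds back pyruvate oxidation, was at 33.05 and 31.89 CPM at the high and 35.95 and 32.35 CPM at the low dose of Longan Arillus, with overlap. With Zizyphi Semen it was at 20.43, 22.19 and 20.44 against 36.3, 36.52 and 31.82 CPM, and the extracts differed by 0.65 ± 0.123 (adjusted p = 0.00911, edgeR). MMD, PLA2G4A, CYP24A1 and GCLC also had the more positive change in Longan Arillus, and KRT19, FA2H, CDH4, NFKB2 and CALR had the more negative one. The change of CYP24A1, the vitamin D hydroxylase, was 0.10 ± 0.0354 with Longan Arillus and -0.13 ± 0.0289 with Zizyphi Semen (difference adjusted p = 0.00922). UGT1A7, which shares exons with the other UGT1A genes so that its counts are uncertain, was at 3.532 and 3.256 against 2.075 and 2.349 CPM with Longan Arillus. Its difference between the extracts was 1.26 ± 0.278 (adjusted p = 0.0333), but high replicate 1 read 1.971 CPM, and with that library the adjusted p was 0.158.

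**Figure D4:**
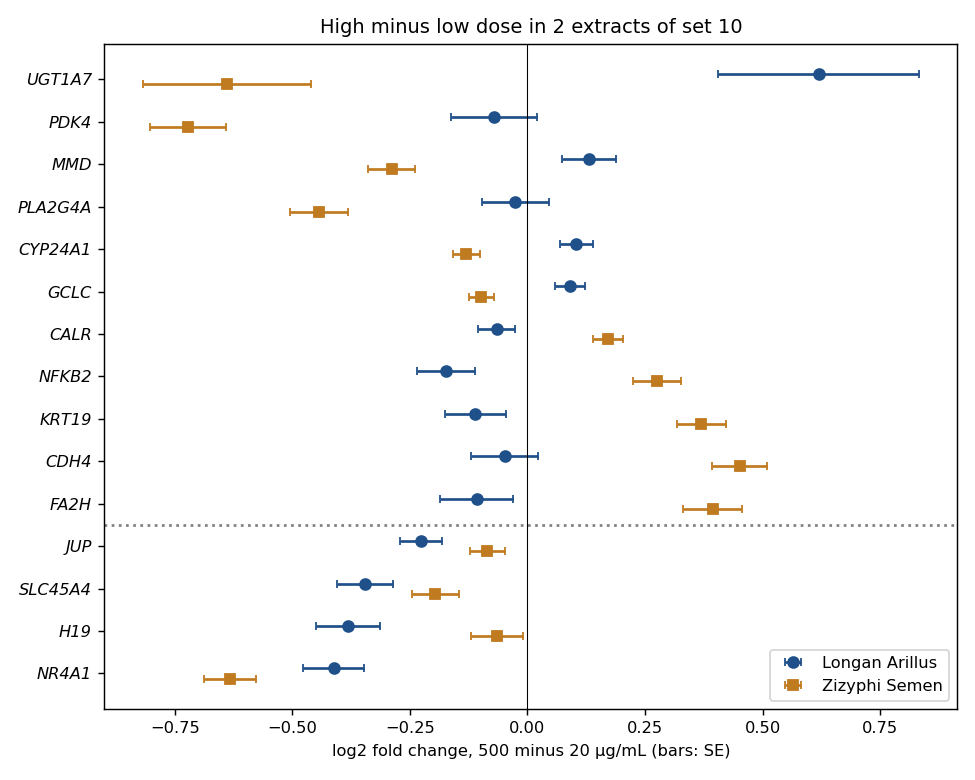
Log2 fold change, 500 minus 20 µg/mL, with its SE for Longan Arillus (blue circles) and Zizyphi Semen (orange squares). Above the dotted line are the 11 named genes whose changes differed between the extracts, and below it the 4 genes lower at the high dose of Longan Arillus, all 4 of which are also below 0 with Zizyphi Semen.

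Longan Arillus on its own passed in none of these 11 genes (adjusted p 0.35 or above), and Zizyphi Semen in 10 of them, with 0.055 for UGT1A7. The count of 26 also rested on few libraries. It was 0 without Longan Arillus high replicate 3, 6 without low replicate 2, 12 without low replicate 1 and 17 without Zizyphi Semen high replicate 3.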

How the data were processed

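The members, gene lists, tests and alternatives were chosen with earlier results of these data known. Paired reads of 100 bp came from directional mRNA libraries, per the labels' protocols. Alignment and counting tools in the submitters' processing notes are STAR 2.7.3a and RSEM 1.3.3, after FastQC 0.11.9 and Trim Galore 0.6.5, on hg38. Which annotation release and strand setting were used for counting is not given in the sources used here, so near-identical or overlapping genes are uncertain. The authors deposited a table of expected counts per gene, unscaled, with 60675 identifiers, of which 41209 had an official symbol and 56996 were in GENCODE 29, the source of coordinates. Of the deposited values, 10.5% were not whole numbers, and all were rounded.

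The 51 libraries of the 19 replicated groups, without high replicate 1, low replicate 3 and another library short of long transcripts, were fitted together with edgeR 4.0.16 in R 4.3.3 (TMM factors, robust quasi-likelihood F test, low-count filter by group). Groups of 2 or 3 libraries therefore share 1 estimate of the spread. Calls were made at an adjusted p (Benjamini-Hochberg) below 0.05 over 18238 genes, and each adjusted p is from edgeR unless another tool is named. CPM values are on 1 TMM scale. The 2 libraries of each dose differed by more than sampling noise (chi-square per degree of freedom 4.323 at the high and 3.817 at the low dose). The script was tested on simulated data. Named genes had a mean of at least 1 CPM and were the called genes whose libraries did not overlap (15 at most per direction, filled up to 5 by p), up to 4 called members of each list or else its first 2 tested members, and the first 5 per direction in the difference between extracts. Others are said to be named after their values were seen. Alternatives changed the normalization, filter, tool (DESeq2 1.42.0), libraries and replicate block. Results of some genes that this rule covers were left out.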

Additional observations from a re-analysis of the deposited data

Results flagged for a closer look

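The high-minus-low change differed between Longan Arillus and Zizyphi Semen, by the interaction test in edgeR, for 26 genes at an adjusted p of 0.05. The difference in log2 fold change, Longan Arillus minus Zizyphi Semen, was 1.258 for UGT1A7, 0.65 for PDK4, 0.42 for MMD (a monocyte to macrophage differentiation factor), 0.417 for PLA2G4A (cytosolic phospholipase), 0.234 for CYP24A1 and 0.188 for GCLC (glutathione synthesis). It was -0.502 for FA2H (fatty acid hydroxylase), -0.499 for CDH4 (a cadherin), -0.481 for KRT19 (a keratin), -0.449 for NFKB2 (an NF-kB subunit) and -0.238 for CALR (a chaperone of the endoplasmic reticulum). Neither extract's libraries were compared with a vehicle of their own set here.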

How the results depend on the processing

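Limits first: 2 libraries a side, 1 set and no vehicle in it bound what can be seen, and genes under about 1 CPM had intervals too wide for a statement. Where a left-out library leaves 1 library at a dose, that library is assumed to vary like the other groups. For high against low dose (4 genes), the count was 16 with high replicate 1 put back, 3344 with all 54 libraries of the replicated groups, 54 with DESeq2, 209 with no low-count filter and 21 with only the 4 libraries (15 higher, 6 lower). It ran from 0 to 5 with 1 library left out. DESeq2 gave an adjusted p to 1266 genes, and to 1 of the 4 called genes, JUP (0.000801). Within set 10 alone 3 genes passed, NR4A1 and SLC45A4 among them, while H19 and JUP had an adjusted p of 0.144 each. For medium against low (0 genes), the count was 3217 with all 54 libraries, 1 with DESeq2, 316 with no filter and 0 to 40 with 1 library left out. For the difference between extracts (26 genes), it was 2 with all 54 libraries, 6 within set 10, 44 with DESeq2, 226 with no filter and 0 to 29 with 1 library left out.

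With all 54 libraries, which brings back low replicate 3, estimates turned sign for UGT1A7 (-0.039), NR4A1 (0.031), NDUFA1 (-0.71) and NDUFA2 (-1.324), and the common dispersion was 0.0173 against 0.00202. The other factors (RLE, upper quartile), a filter at a mean of 1 CPM, leaving out medium replicate 1 and removing length and GC trends kept all 3 counts within 1.5 times. The last 2 were chosen after seeing the data.

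Replicate numbers were not taken to pair the libraries compared. Same-numbered deviations correlated at 0.237, -0.02 and 0.246 between the high and low dose in replicates 1, 2 and 3. Between the medium and low dose they correlated at 0.102, -0.147 and -0.006. Values that involve high replicate 1 or low replicate 3 use a left-out library. Between the high and low dose, only -0.02 therefore rests on libraries compared alone, so pairing among them is hardly measured. Between the high and medium dose, which were not compared, same-numbered deviations correlated at 0.797, 0.13 and 0.525. With the replicate block within set 10, 11 genes passed at high against low (4 higher, 7 lower), against 3 without the block, and 16 with high replicate 1 put back. The block gave 0 genes for medium against low, and 21 and 20 for the difference between extracts.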
